A study of Mus musculus with 3 samples.

Results

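The cells described here are tumor-infiltrating T cells that the authors gave a Cd4 identity and placed in the Cd4 class, compared between those tagged as hashtag sample 4 and those tagged as hashtag sample 1. They number 1520 of 5564 cells, with 383 in sample 4 and 1137 in sample 1, and were chosen by the deposited labels of identity, class and hashtag number alone. B16F10, a transplantable mouse melanoma, was implanted in mice, and 1 day later the animals received an intravenous transfer of purified T cells, either CD4 cells of CD45.1 type or CD8 cells of CD45.2 type, CD45 alleles that tell the donor origin. On day 11 the tumors of 10 mice were pooled and 4 populations with an open repertoire, labelled untreated, were sorted: from the CD45.1+ cells those with CD4 alone (CD4+) and those with both co-receptors (CD4+CD8+), and from the CD45.2+ cells those with CD8 alone (CD8+) and those with both (CD8+CD4+). Each was given a hashtag, about equal numbers were pooled, and 6200 cells were loaded for 1 droplet library that reads the 5′ end of transcripts. The genotype of the recipient mice is not given in the labels. The labels list the sorted populations in differing orders and tie no hashtag number to a population, so the 2 groups are named only by their numbers and no value below stands for a sorted population.

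CD4 T cells read antigen on MHC class II through the co-receptor CD4 and include helper cells, which make cytokines, and regulatory cells, which carry the transcription factor Foxp3 and restrain other T cells. CD8 T cells use a co-receptor of CD8 alpha and beta chains, and the transcription factors ThPOK (Zbtb7b) and Runx3 hold the CD4 and CD8 programs apart in the thymus. T cells that carry both co-receptors have been found among peripheral and tumor-infiltrating lymphocytes.

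The barcodes that tell the sorted populations apart are shown because the whole comparison rests on reading them. The labels list these 4 in this order, tie none to a number from 1 to 4, and give the last with 14 bases and the others with 15.
C0301: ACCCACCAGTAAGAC
C0302: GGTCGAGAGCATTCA
C0303: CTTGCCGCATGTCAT
C0304: AAAGCATTCTTCAG

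The Cd4 class held 71.2% of the cells of hashtag sample 1 (1137 of 1596, exact 95% binomial interval 69.0 to 73.5) and 34.4% of those of sample 4 (383 of 1114, 31.6 to 37.3), with 43.5% in sample 2 and 18.1% in sample 3. Depth was alike in the compared cells: the median cell had 3647 UMIs (unique molecular identifiers, each 1 captured RNA molecule) in sample 1 and 3527 in sample 4, from 1543 and 1519 genes, with 0.924% and 1.00% mitochondrial UMIs. The summed counts held 5352356 UMIs for sample 1 and 1662931 for sample 4, so the level of a gene in sample 4 is the less precise. Both groups carried T cell markers: Cd3e, a chain of the T cell receptor complex, stood at 1198 CPM (the gene's share of all summed UMIs, scaled to 1000000) in sample 1 and 1248 CPM in sample 4, and only 2 cells and 1 cell had no UMI of 6 receptor complex genes. Because all cells came from 1 pool and 1 library there are no replicates, no test was made, and the 95% intervals given throughout cover only counting error.

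Most genes stood at nearly the same level in the Cd4 class cells of both numbers. Of 10023 genes measured with at least 20 UMIs, 8806 (87.9%) lay within 1.5-fold by the ratio of their levels. The median log2 ratio of sample 4 over sample 1 was -0.010, on a scale with 5 CPM added to each level, which draws low genes towards 0. Called genes, higher or lower, are those with a difference of 1.5-fold or more and a ratio whose interval leaves out 1, a rule of size applied to folds with no CPM added. By this rule 396 genes (3.95%) were called, of which 154 (1.54%) were higher and 242 (2.41%) lower in sample 4, while 821 others passed the fold with an interval that took in 1. In the Cd8 class cells of the same 2 numbers, 387 and 593 cells, 711 of 9680 genes (7.35%) were called, with 276 (2.85%) higher and 435 (4.49%) lower. Of these Cd8 class cells, 9.56% in sample 1 and 5.90% in sample 4 had no UMI of 6 receptor complex genes. At least 5 UMIs of macrophage markers were found in 14.5% and 6.7%, and at least 20 UMIs of MHC class II genes in 14.7% and 7.9%. The part of such cells in the Cd8 class ratios was not tested. Among the 154 higher genes of the Cd4 class, 22 were called higher there too, which is 15.9% of those measured in the Cd8 class and 7.97% of the 276, and 7 were called lower. Among the 242 lower genes, 64 were called lower there too, which is 28.6% of the 224 measured and 14.7% of the 435, and 8 were called higher. Single cells weighed on some genes: for 26 of the 154 higher genes, 2 cells supplied at least 50% of the UMIs of sample 4.

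**Figure D1:**
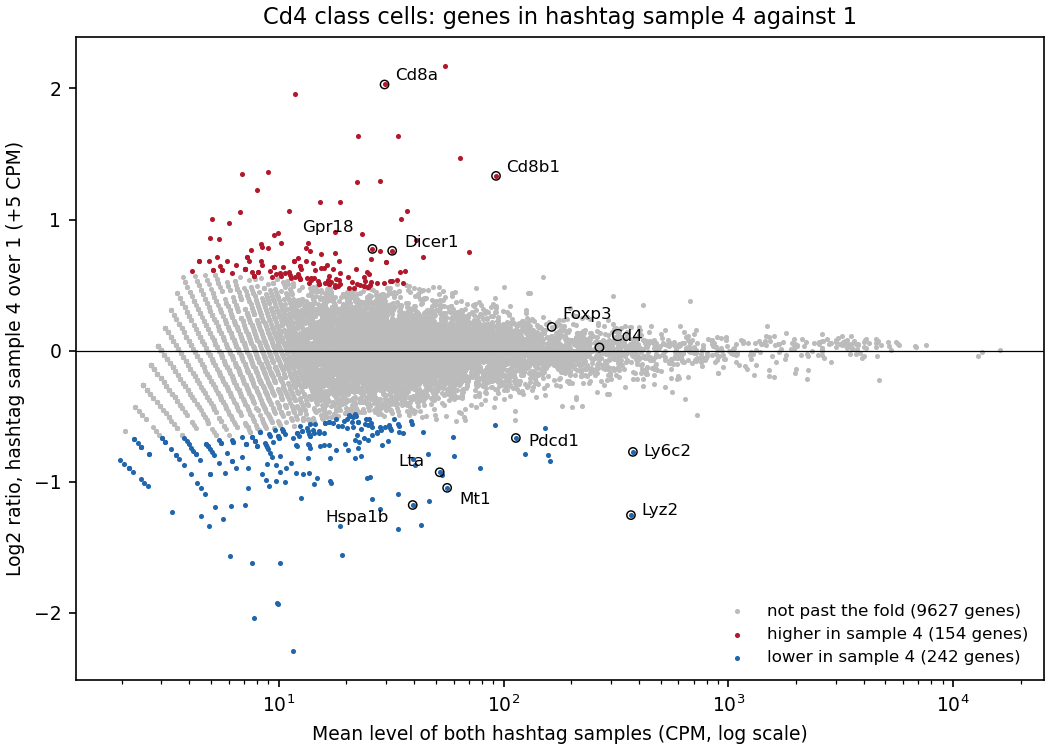
Log2 ratio of hashtag sample 4 over 1 in Cd4 class cells (y axis, 5 CPM added) against the mean level of both (x axis, CPM, log scale), 1 point per measured gene, with the genes called higher in red (154) and lower in blue (242). Cd8a and Cd8b1 stand among the highest points, Lyz2 and Hspa1b among the low points, and Cd4 and Foxp3 next to the line of no difference.

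The genes of the CD8 co-receptor had the highest log2 ratios among the genes ranked by the fixed rule for naming, given below. That rule asks for 100 UMIs over both samples and a UMI in 5% of the cells of the higher one. Genes that are not so ranked had higher folds than Cd8b1, among them Prf1, Gzmc, Il13 and Dapl1, described below. Of these, Gzmc and Il13 also had a higher log2 ratio, 1.64 and 1.36 beside 1.33 for Cd8b1. Cd8b1, the CD8 beta chain, was at 50.5 CPM in sample 1 and 135 CPM in sample 4, a 2.67-fold higher level (interval 2.23 to 3.2). Cd8a, the CD8 alpha chain, was at 8.59 CPM in sample 1 and 50.5 CPM in sample 4, 5.88-fold higher (4.06 to 8.61). Sample 4 was not the highest of the numbers: Cd8b1 stood at 68.7 CPM in sample 2 and 255 CPM in sample 3, and Cd8a at 24.6 and 71.0 CPM, so sample 1 was the lowest of the 4 for both chains. The Cd8b1 call ended and its direction turned when cells with 2 UMIs of markers of other cell types were left out, a filter that kept 244 and 100 cells: it then had 23 and 7 UMIs, or 29.7 and 22.8 CPM (ratio 0.768, 0.278 to 1.85), and Cd8a had 5 and 3 UMIs.

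Both the share of cells with the transcript and the UMIs per such cell were higher in sample 4. For Cd8b1 the intervals of the shares overlapped, and the UMIs per such cell were given no interval. Cd8b1 was found in 9.32% of the Cd4 class cells of sample 1 (270 UMIs in 106 cells, 7.70 to 11.2) and 14.1% of those of sample 4 (224 UMIs in 54 cells, 10.8 to 18.0), and Cd8a in 1.67% (46 UMIs in 19 cells, 1.01 to 2.60) and 5.22% (84 UMIs in 20 cells, 3.22 to 7.95). With every cell thinned to 2000 UMIs, 1055 and 345 cells were kept. The Cd8b1 shares were then 6.16% (4.79 to 7.79) and 10.4% (7.42 to 14.15), which again overlap. The Cd8a shares were 1.23% (0.658 to 2.10) and 4.93% (2.90 to 7.77). In the Cd8 class, where the gene belongs, Cd8b1 was found in 62.0% of sample 1 and 86.0% of sample 4 cells. The Cd8a share in the Cd4 class is held down by how the class was made, since all 406 cells of the authors' double-positive class, Tdp, carried Cd4 and Cd8a UMIs together, and only 1 of the 39 compared cells with Cd8a also had a Cd4 UMI.

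Cells with a UMI of either CD8 chain, 112 in sample 1 and 58 in sample 4, had near shares of several other genes, with wide intervals. Foxp3 was found in 39.3% (30.2 to 49.0) of these cells in sample 1 and 41.4% (28.6 to 55.1) in sample 4, against 22.6% and 21.2% of the cells without a CD8 chain UMI. The CD4 transcript was found in 53.6% and 46.6% of them, and Nkg7, a granule gene of cytotoxic cells, in 55.4% and 67.2%. The 2 shares of the CD4 transcript cannot be compared directly, because of how the class was made. Cells with Cd8a were 19 of the 112 and 20 of the 58, and only 1 of these 39 had a Cd4 UMI. The cells with a CD8 chain UMI were the deeper ones, with a median of 4013.5 UMIs in sample 1 and 4616.5 in sample 4, against 3611 and 3459 in the other cells. A pair of different Trbv genes (V segments of the T cell receptor beta chain), a sign of more than 1 cell in a droplet, were found in 23.5% (16 of 68 cells with enough V gene UMIs, 14.1 to 35.4) of them in sample 1 and 23.3% (10 of 43, 11.8 to 38.6) in sample 4. The other cells had 16.96% (14.1 to 20.2) and 18.4% (13.1 to 24.7), so these shares overlap within counting error. The part of such droplets in the CD8 chain levels was not tested, but without all cells with 2 such V genes the log2 ratio was 2.21 for Cd8a and 1.10 for Cd8b1, beside 2.03 and 1.33 with them.

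The lineage genes outside the CD8 chains stood close together. Cd4 itself was at 265 CPM in sample 1 and 269 CPM in sample 4 (1.02-fold, 0.913 to 1.13), and was found in 66.1% and 64.0% of cells. Zbtb7b, the CD4 lineage factor, stood at 50.6 and 52.3 CPM (1.03-fold, 0.802 to 1.32), and Runx3, the CD8 lineage factor, at 116 and 135 CPM (1.17-fold, 0.997 to 1.36). Cd40lg, the helper ligand of B cells and dendritic cells, stood at 181 and 175 CPM. None of 10 measured genes of the CD4 lineage and helper list was called, and its median log2 ratio was -0.074.

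Of 10 genes of the CD8 lineage list, 4 were higher and none lower, with a median log2 ratio of 0.50. Besides the CD8 chains these were Cd160, an inhibitory receptor, at 9.90 CPM in sample 1 and 16.8 CPM in sample 4, and the chemokine gene Xcl1. For Xcl1, 80 of the 89 UMIs of sample 4 lay in 1 cell. Leaving out the cells that held a CD8 chain UMI removes both chains from the list by construction and leaves 7 measured members, whose median was -0.045, beside 0.21 for the same 7 over all cells. In that setting the log2 ratio was -0.10 for Cd160 and -2.02 for Xcl1. Without cells with markers of other cell types the median was -0.058 over 5 members.

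**Figure D2:**
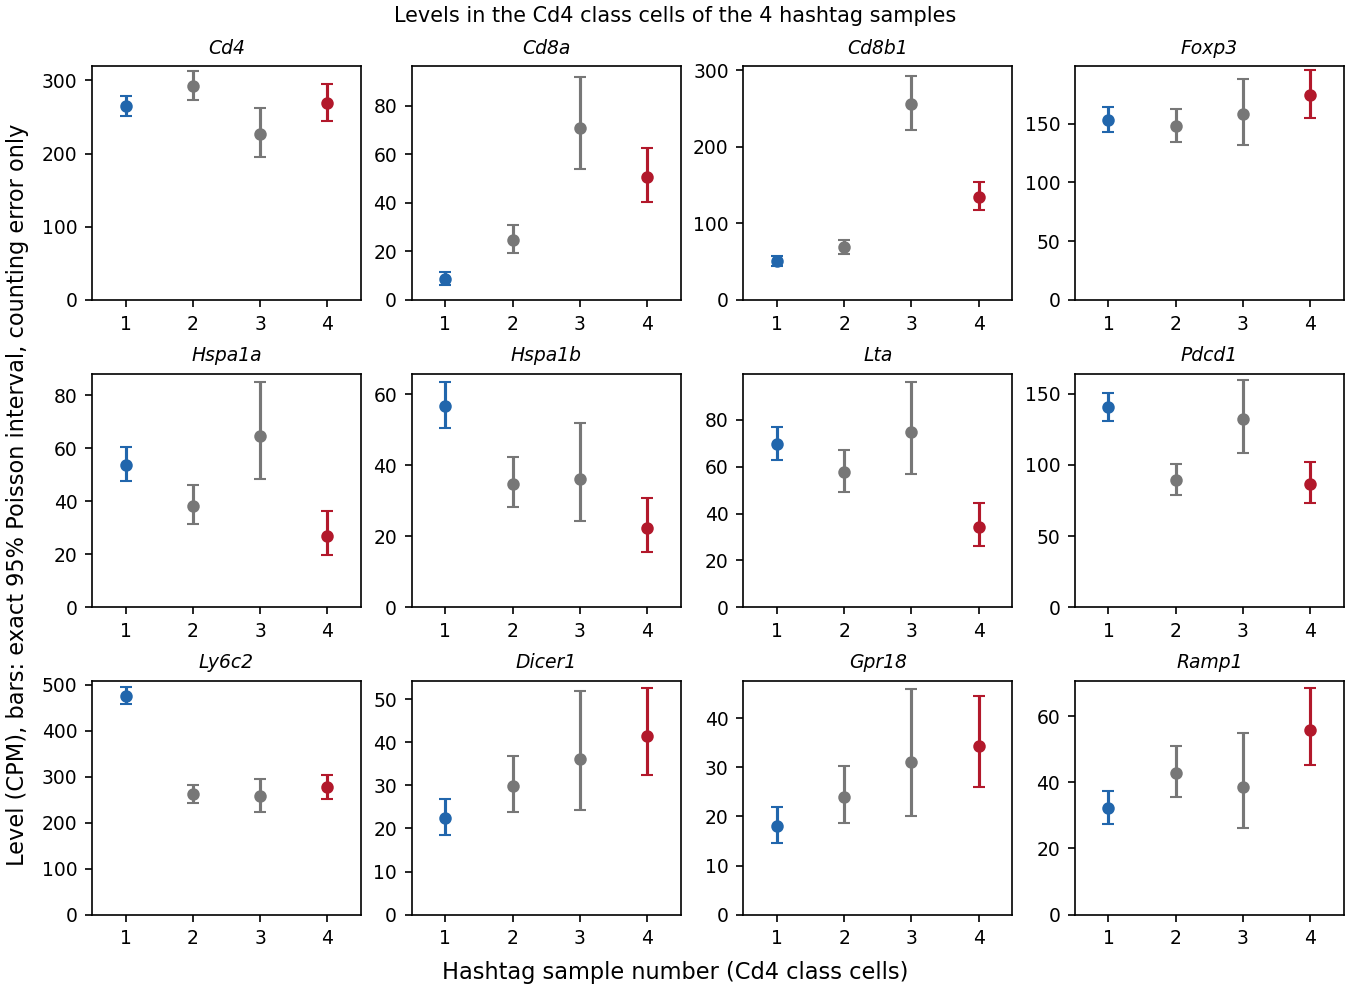
Level of 12 genes (CPM, y axes from 0) in the Cd4 class cells of hashtag samples 1 to 4 (x axis), with exact 95% Poisson intervals for counting error. Cd8a and Cd8b1 are lowest in sample 1 and highest in sample 3, Ly6c2 is high in sample 1 alone, Hspa1b is highest in sample 1 and lowest in sample 4, and Cd4 and Foxp3 differ little between samples 1 and 4.

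Foxp3, the factor that marks regulatory T cells, was found in a like share of both groups. It was found in 24.3% of the cells of sample 1 (276 cells, 21.8 to 26.9) and 24.3% of those of sample 4 (93 cells, 20.1 to 28.9), while it was found in 5.68% and 3.204% of the Cd8 class cells. Its level was 153 CPM in sample 1 and 174 CPM in sample 4 (1.14-fold, 0.992 to 1.30). None of 13 measured regulatory core genes was called, and their median log2 ratio was -0.062. Il2ra, the high-affinity IL-2 receptor chain, stood at 135 and 137 CPM, Ikzf2, the factor Helios, at 231 and 232 CPM, and Ctla4, an inhibitory receptor of regulatory cells, at 209 and 200 CPM.

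Among 16 genes of effector regulatory cells 1 was called, and 14 had a log2 ratio below 0 with a median of -0.20. The called gene was Il1r2, a decoy receptor of IL-1, which was lower in sample 4 at 15.03 CPM than in sample 1 at 34.2 CPM (2.27-fold, 1.49 to 3.61). Tnfrsf4, the costimulatory receptor OX40, was at 624 CPM in sample 1 and 501 CPM in sample 4, which is short of the fold. Klrg1, a receptor of terminally differentiated cells, stood at 59.6 and 77.6 CPM and was not called either.

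Helper cytokine genes were mostly level. Ifng, the gene of interferon gamma, was at 64.5 CPM in sample 1 and 68.0 CPM in sample 4, and Tnf at 60.4 and 57.7 CPM. In the list of 14 Th1 and effector cytokine genes none was higher and Lta, Il2 and Csf2 were lower in sample 4. Lta, the gene of lymphotoxin alpha, was at 69.7 CPM in sample 1 and 34.3 CPM in sample 4, 2.03-fold lower (1.54 to 2.74), and in samples 2 and 3 it stood at 57.6 and 74.8 CPM, so sample 4 was the lowest. Cells with an Lta UMI were 14.3% (12.4 to 16.5) and 11.5% (8.47 to 15.1), so the shares overlap within counting error, and 2 cells of sample 1 held 87 of its 373 UMIs. Without the 6 cells of sample 1 and the 2 of sample 4 with most Lta UMIs the log2 ratio was -0.46, beside -0.93 with them, and the gene was not called, and it was 0.24 without cells with markers of other cell types. For Il2, 92 of the 166 UMIs of sample 1 were in 1 cell, the share of cells with a UMI was 5.63% in sample 1 and 6.01% in sample 4, and the log2 ratio was 0.15 without 6 and 2 top cells. Csf2 rested on 50 and 5 UMIs.

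Genes of helper cells of other kinds were scarce. Il13, a Th2 cytokine gene, had 15 UMIs in sample 1 and 25 in sample 4, of which 24 lay in 1 cell, and Il17a had 23 and 1 UMIs, in 0.352% and 0.261% of cells. Il21, a follicular helper cytokine gene, had 23 UMIs in sample 1 and 0 in sample 4, a share of cells of 0.967% against 0. Serpinb1a, a protease inhibitor gene found in IL-17-type cells, was found in 17.1% and 17.2% of cells.

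Cytotoxic genes were present in both groups and 2 of 11 were called higher in sample 4. Prf1, the gene of the pore protein perforin, was at 9.90 CPM in sample 1 and 27.7 CPM in sample 4 (2.79-fold, 1.84 to 4.23), although 17 of its 46 UMIs in sample 4 were in 1 cell. The cells with a Prf1 UMI were 3.61% and 5.22%. Gzmc was the other, with 79 of its 90 UMIs of sample 4 in 1 cell and a log2 ratio of -0.92 without the cells with Foxp3. Gzmb, granzyme B, which helps kill target cells, stood at 675 and 736 CPM and was found in 36.3% and 38.1% of cells. Gzma stood at 120 and 179 CPM (1.499-fold, 1.30 to 1.72), just short of the fold, and was found in 6.51% and 6.79% of cells.

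Inhibitory receptor genes tended below 0, with 11 of 14 log2 ratios negative and a median of -0.19, though only Pdcd1 was called lower and Cd160 higher. Pdcd1, the gene of the checkpoint receptor PD-1, was at 140.3 CPM in sample 1 and 86.6 CPM in sample 4, 1.62-fold lower (1.35 to 1.95). Samples 2 and 3 stood at 89.2 and 132 CPM, so samples 1 and 3 were high and samples 2 and 4 low. The gene was found in 23.3% of the cells of sample 1 (20.9 to 25.9) and 20.6% of those of sample 4 (16.7 to 25.03), and after thinning to 2000 UMIs in 15.5% (13.3 to 17.8) and 9.28% (6.43 to 12.8). Pdcd1 was not called when every cell was given equal weight (log2 ratio -0.30, beside -0.67), without cycling cells (-0.42) or in cells of 1500 to 8000 UMIs (-0.36). In the Cd8 class its log2 ratio was 0.29, and the list's median there was 0.29. Entpd1, the ectonucleotidase CD39, was at 34.0 and 22.9 CPM and Lag3, another checkpoint receptor, at 44.1 and 30.7 CPM, both short of the fold.

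Genes of naive and memory cells tended above 0, with 10 of 14 positive and a median log2 ratio of 0.18. Klf2, a factor of resting and recirculating T cells, was at 261 CPM in sample 1 and 351 CPM in sample 4 (1.34-fold, 1.22 to 1.48) and was found in 43.7% and 50.1% of cells. Il7r, the IL-7 receptor of resting cells, stood at 366 and 467 CPM (1.27-fold, 1.17 to 1.38). S1pr1, the receptor for exit from tissue, stood at 78.3 and 102 CPM. These 3 were short of the fold, and the called genes of the list were 2 low ones, Ccr7 and Dapl1, and Ly6c2. Of Ccr7, the lymph node homing receptor, 28 of the 49 UMIs of sample 4 were in 1 cell and the log2 ratio was -0.42 without the cells with a CD8 chain UMI, and Dapl1 had 13 and 16 UMIs.

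Ly6c2, which encodes the surface protein Ly6C of memory T cells and monocytes, was higher in sample 1 than in sample 4. It was at 476 CPM in sample 1 and 277 CPM in sample 4, 1.72-fold lower (1.56 to 1.90), and at 262 and 258 CPM in samples 2 and 3. A UMI was found in 25.3% of the cells of sample 1 (22.8 to 28.0) and 18.8% of those of sample 4 (15.01 to 23.1). Without cells carrying macrophage markers or many MHC class II UMIs, described below, the log2 ratio was -0.48, beside -0.77 with them, and the gene was no longer called. The same held with equal weight for every cell (-0.55), after thinning (-0.45) and in cells of 1500 to 8000 UMIs (-0.40).

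Outside these groups the genes named by the fixed rule as higher in sample 4 were of mixed function and modest in size. Gpr18, a G protein-coupled receptor known from intestinal lymphocytes, was at 17.9 CPM in sample 1 and 34.3 CPM in sample 4 (1.91-fold, 1.35 to 2.68) and was found in 7.04% (5.62 to 8.68) and 11.7% (8.70 to 15.4) of cells. Dicer1, the enzyme that cuts microRNA precursors, was at 22.4 and 41.5 CPM (1.85-fold, 1.36 to 2.51), in 9.76% (8.10 to 11.6) and 15.7% (12.2 to 19.7) of cells. Ramp1, a partner of the receptor for the neuropeptide CGRP, was at 32.1 and 55.9 CPM (1.74-fold, 1.34 to 2.25). For Dicer1 and Gpr18 the levels in samples 2 and 3, 29.9 and 36.1 CPM and 23.9 and 31.2 CPM, lay between those of samples 1 and 4, and the same held for Ramp1 at 42.7 and 38.6 CPM. Selenop, the gene of selenoprotein P, was at 51.0 and 89.6 CPM, but 46 of its 149 UMIs in sample 4 were in 1 cell, and the call was lost under 6 alternatives.

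Other genes in this group were Dtx1, a Notch pathway gene, with a log2 ratio of 0.75, Pik3ip1, an inhibitor of PI3 kinase, with 0.62, Edc4, of the mRNA decapping machinery, with 0.62, Sap130, of the Sin3 repressor complex, with 0.60, and the centrosome genes Cep170 and Cep85 with 0.60 and 0.58. Ttc13, Hist1h1d, a linker histone gene, and Fam117b had 0.68, 0.68 and 0.60. Hist1h1d was not called under several alternatives, and its log2 ratio was -0.0096 in cells of 1500 to 8000 UMIs and -1.42, on 20 and 2 UMIs, without cells with markers of other cell types. In the Cd8 class, of these 15 genes Cd8b1, Selenop and Hist1h1d were also called higher, and none of the others was called either way.

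The 2 inducible Hsp70 genes, Hspa1a and Hspa1b, were lower in sample 4. Hsp70 is a chaperone whose genes are switched on by heat shock factor under protein stress. The copies lie on chromosome 17 and are known as near-identical copies, so how reads were split between them is uncertain and was not checked here. The 250 bases before each start are shown because both genes were lower together, with capitals marking the 3 of 250 positions at which they differ, from RefSeq and build GRCm38.p6, both on the minus strand, Hspa1a at chr17:34972157-34972406 and Hspa1b at chr17:34959239-34959488.
Hspa1a: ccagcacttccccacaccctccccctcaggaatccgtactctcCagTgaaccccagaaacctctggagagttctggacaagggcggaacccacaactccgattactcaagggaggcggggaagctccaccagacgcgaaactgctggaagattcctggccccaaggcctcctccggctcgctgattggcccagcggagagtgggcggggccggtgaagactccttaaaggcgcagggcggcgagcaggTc
Hspa1b: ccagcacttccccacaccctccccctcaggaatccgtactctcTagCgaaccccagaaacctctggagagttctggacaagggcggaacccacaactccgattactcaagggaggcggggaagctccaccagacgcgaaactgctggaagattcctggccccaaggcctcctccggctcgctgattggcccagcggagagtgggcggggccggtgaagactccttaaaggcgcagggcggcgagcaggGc
The core motif of heat shock elements, searched as GAANNTTC or TTCNNGAA, each of which is its own reverse complement, occurred once in each, as GAAGATTC from base 147 of the window. Over 27025 genes with such a window 12.9% held a match, as did 6 of the 13 genes of the 17 in the AP-1 and heat shock list that had one.

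Summed over both copies, the level was 110.4 CPM in sample 1 (591 UMIs, 101.7 to 119.7) and 49.3 CPM in sample 4 (82 UMIs, 39.2 to 61.2), with 72.9 CPM in sample 2 and 100.9 CPM in sample 3. The ratio was 0.447 (0.350 to 0.563), and sample 4 had the lowest level of the 4 numbers. Cells with a UMI of either copy were 15.1% (13.1 to 17.3) and 10.7% (7.79 to 14.2), which overlap within counting error. In samples 2 and 3 such cells were 12.85% and 7.92%, so by share of cells sample 3 was the lowest. Taken singly, Hspa1b was at 56.6 and 22.3 CPM (2.54-fold lower, 1.805 to 3.68) and Hspa1a at 53.8 and 27.1 CPM (1.99-fold lower, 1.45 to 2.79). Both kept their call without the cells carrying macrophage markers or many MHC class II UMIs, with log2 ratios of -0.94 for Hspa1b and -0.64 for Hspa1a. In the Cd8 class the log2 ratios were 0.073 for Hspa1b and -0.046 for Hspa1a.

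The rest of the AP-1 and heat shock list moved little. Of 17 measured genes none was higher and 3 were lower, the third being Atf3, a stress factor gene with 68 and 7 UMIs, and the median log2 ratio was -0.14. Hsph1, a chaperone of the Hsp110 family, stood at 65.6 CPM in sample 1 and 49.3 CPM in sample 4 and was short of the fold. Mt1, a metal-binding metallothionein gene, was lower in sample 4 at 34.9 CPM than in sample 1 at 77.4 CPM (2.22-fold, 1.68 to 2.97), with 40.3 CPM in sample 2 and 144 CPM in sample 3. In sample 1, 102 of the 414 UMIs of Mt1 were in 1 cell, and cells with a UMI were 8.97% and 8.36%. Nr4a1, an early gene of T cell receptor signalling, was called higher, at 21.5 and 48.1 CPM, though cells with a UMI were 5.10% and 4.70%. Without the cells with a Foxp3 UMI its log2 ratio was -0.49, beside 1.00 with them, and it was not called.

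Several lists leaned to 1 side with few or no members called. Type I interferon response genes had 19 of 21 log2 ratios below 0 (median -0.13), and Isg15, an interferon-induced ubiquitin-like protein gene, stood at 645 CPM in sample 1 and 557 CPM in sample 4. Glycolysis and hypoxia genes had 16 of 18 below 0 (median -0.18), with the glycolytic enzyme gene Pgk1 at 720 and 557 CPM. Mitosis genes had 15 of 20 below 0 (median -0.21), with Ube2c, a mitotic ubiquitin enzyme gene, at 233 and 171 CPM. Cells with at least 2 UMIs of 8 cycling markers were 17.9% (15.7 to 20.2) of sample 1 and 15.4% (11.9 to 19.4) of sample 4, which is within counting error. Without such cells the median of the mitosis list was 0.15, over 6 measured genes. All 12 mitochondrial genome genes had a log2 ratio above 0 (median 0.11), of which mt-Nd6, a subunit gene of respiratory complex I, was called higher at 21.7 and 33.1 CPM (1.53-fold, 1.09 to 2.12), beside median mitochondrial shares of 0.924% and 1.00%. Without cells with markers of other cell types the medians were 0.0089 for the interferon list and -0.020 for the mitochondrial genes. That filter kept 244 of 1137 and 100 of 383 cells. Its markers include Bst2, Ccr9, Eomes and Gzma, which are not confined to other cell types, so it also left out T cells. The part of this choice of cells in the 2 medians was not tested. In the Cd8 class the medians were -0.49 for the interferon list, -0.31 for glycolysis and -0.35 for mitosis.

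**Figure D3:**
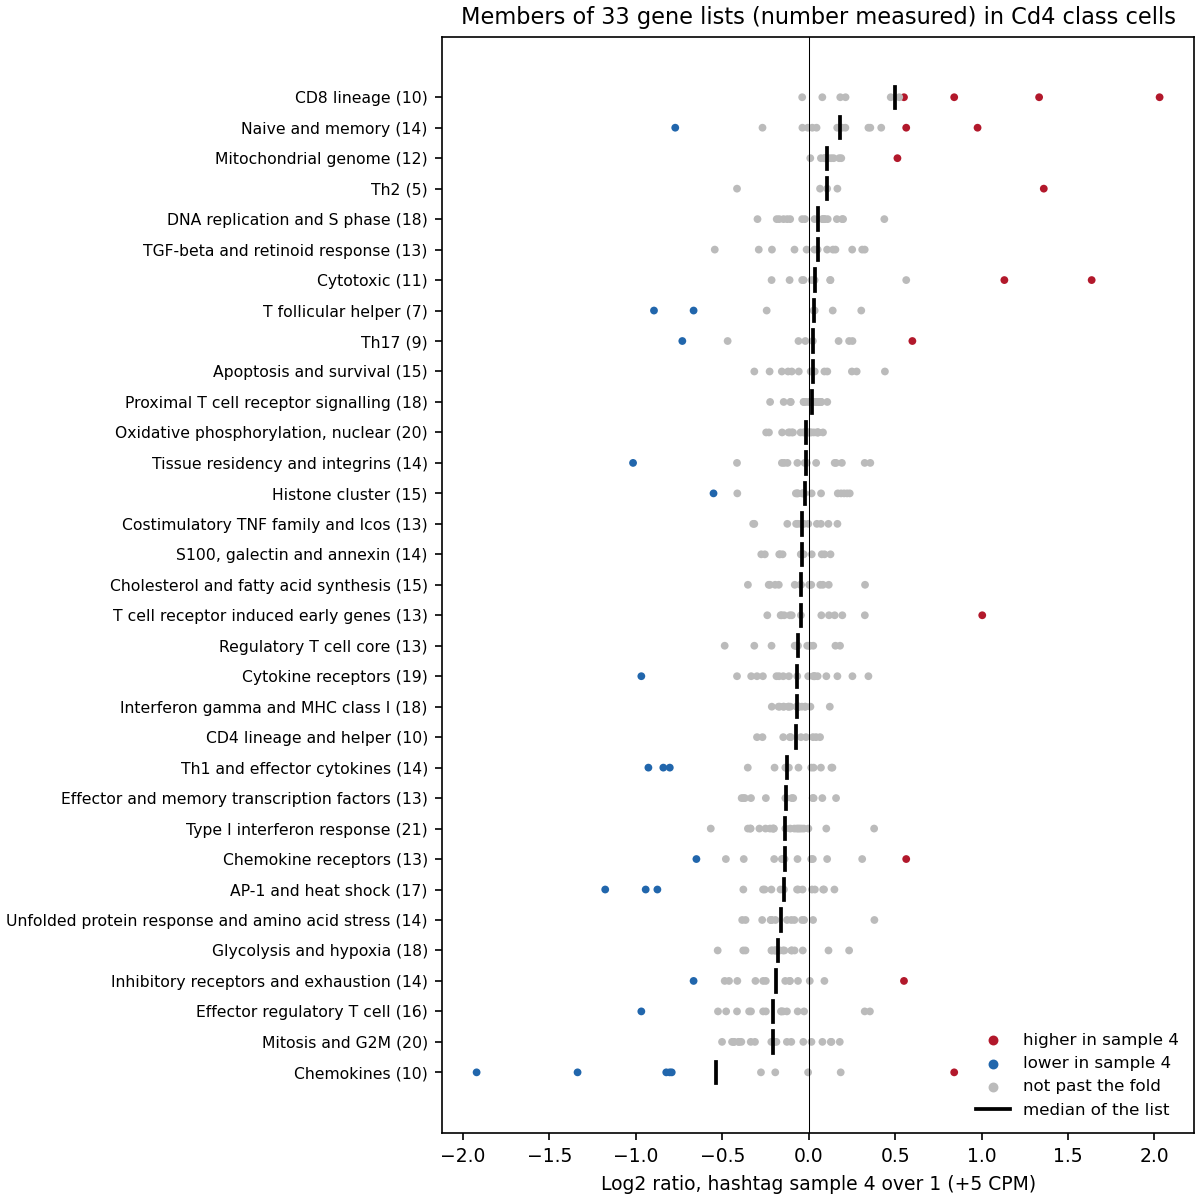
Log2 ratio of hashtag sample 4 over 1 (x axis, 5 CPM added) for each measured member of 33 gene lists, 1 row per list, with called members in red or blue and the median as a black bar. The CD8 lineage list has the highest median (0.50) and the chemokine list the lowest (-0.53, but 0.026 without cells with 2 Trbv genes). Leaving out cells with a CD8 chain UMI removes both chains from the CD8 lineage list. The 7 members then measured have a median of -0.045, beside 0.21 for the same 7 over all cells. Most members of the other lists lie near 0 and are not called.

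Genes of myeloid cells were among the lowest ratios and rested on a few cells. Lyz2, the lysozyme gene of macrophages and monocytes, was at 522 CPM in sample 1 and 216 CPM in sample 4, in 6.77% and 4.96% of cells. Cells with at least 5 UMIs of macrophage markers or 20 UMIs of MHC class II genes were 59 of 1137 in sample 1 (5.19%, 3.97 to 6.64) and 14 of 383 in sample 4 (3.66%, 2.01 to 6.06), and they held 98.8% and 96.4% of the Lyz2 UMIs. Without them the log2 ratio of Lyz2 was 0.18, beside -1.25, and that of Tyrobp, an adaptor gene of myeloid and NK cells, was 1.39, beside -0.84. Over the 12 macrophage markers the summed level was 811 CPM in sample 1 and 507 CPM in sample 4, and no marker was at 0. Among these markers C1qa, C1qc and Ms4a7 were called higher, and Cd14, Csf1r, Fcgr3 and Lyz2 lower. Of the 87 C1qc UMIs of sample 4, all lay in 2 cells. Without the 2 cells of each sample with most UMIs of the gene, the log2 ratios were -1.75 for C1qc and -1.07 for C1qa. Cybb, a phagocyte oxidase subunit, was at 37.6 and 14.4 CPM and Ccl6, a myeloid chemokine gene, at 159 and 89.6 CPM, with a log2 ratio of 0.078 for Ccl6 in cells of 1500 to 8000 UMIs.

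Chemokine genes had the lowest median of the lists, -0.53, with 5 of 10 called lower and Xcl1 higher, but without cells with 2 Trbv genes the median was 0.026 over the same number of genes. Ccl4 was at 200.5 CPM in sample 1 and 114 CPM in sample 4, and 2 cells of sample 1 held 613 of its 1073 UMIs. The Ccl4 log2 ratio was 0.24 without cells with 2 Trbv genes and 0.31 without cycling cells. Ccl22 had 98 of its 99 UMIs of sample 1 in 2 cells, and Cxcl2 had 49 UMIs in sample 1 and 1 in sample 4. Ccl9 stood at 51.8 and 27.1 CPM, in 4.13% and 1.57% of cells. The remaining genes that the rule named as lower were Ado, a thiol dioxygenase gene, at 23.0 and 10.8 CPM, Tpd52 at 29.3 and 14.4 CPM, and Ier3, an early response gene, at 26.9 and 13.8 CPM. Their cells were fewer as well: Ado was found in 9.23% and 4.18%, Tpd52 in 7.65% and 4.96%, and Ier3 in 6.25% and 3.13%.

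The cells were split by a Foxp3 UMI to read the ratios in cells with and without it. Detection hung on depth: after thinning to 2000 UMIs Foxp3 was found in 18.2% of sample 1 and 17.97% of sample 4, beside 24.3% of both unthinned. The cells without a Foxp3 UMI can therefore include regulatory cells. The 276 and 93 cells with Foxp3 had 146 of 7285 genes (2.00%) higher and 309 (4.24%) lower in sample 4, and the 861 and 290 cells without it had 185 of 9549 (1.94%) higher and 195 (2.04%) lower. Cd8b1 was higher in both, at 112 and 268 CPM with Foxp3 (2.40-fold, 1.84 to 3.102) and 30.5 and 94.6 CPM without (3.11-fold, 2.40 to 4.03). Cd8a was higher in both, at 12.2 and 109 CPM with Foxp3 and 7.43 and 32.8 CPM without. In each group of cells sample 4 stood above sample 1, and cells with Foxp3 stood above those without it.

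Several of the lower genes were called in both sets of cells. The sum of Hspa1a and Hspa1b was at 78.5 CPM in sample 1 and 7.81 CPM in sample 4 with Foxp3 (103 and 3 UMIs, ratio 0.0996, 0.0202 to 0.299) and at 120.8 and 61.8 CPM without (ratio 0.511, 0.398 to 0.650). With Foxp3 these UMIs lay in 23 of 276 cells of sample 1 (8.33%, 5.36 to 12.2) and 3 of 93 cells of sample 4 (3.23%, 0.670 to 9.14). Those shares overlap within counting error. Ly6c2 was at 359 and 133 CPM with Foxp3 (2.70-fold lower, 2.02 to 3.68) and 514 and 320 CPM without (1.61-fold lower, 1.45 to 1.79). Lta was 2.55-fold lower (1.37 to 5.29) and 1.91-fold lower (1.39 to 2.67), and Mt1 was 3.15-fold lower (2.01 to 5.19) and 1.61-fold lower (1.13 to 2.35), each with Foxp3 first. For Hspa1a with Hspa1b and for Ly6c2 the intervals of the 2 sets of cells did not overlap, and that difference was not tested.

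Other genes were called in 1 set. Pdcd1 was at 154 CPM in sample 1 and 84.4 CPM in sample 4 in cells without Foxp3 (1.82-fold lower, 1.48 to 2.25) and at 99.8 and 93.8 CPM in cells with it (ratio 0.939, 0.631 to 1.37). Entpd1 was at 29.0 and 14.1 CPM without Foxp3 and 49.5 and 52.1 CPM with it. Klrg1 was at 182 and 281 CPM with Foxp3 (1.54-fold, 1.22 to 1.95) and 19.8 and 16.4 CPM without, and Gzma at 108 and 240 CPM with Foxp3 (2.21-fold, 1.69 to 2.90) and 123 and 161 CPM without. S1pr1 was at 78.5 and 128 CPM with Foxp3 and 78.2 and 93.8 CPM without. Whether the ratio differed between the sets of cells was not tested for these genes.

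**Figure D4:**
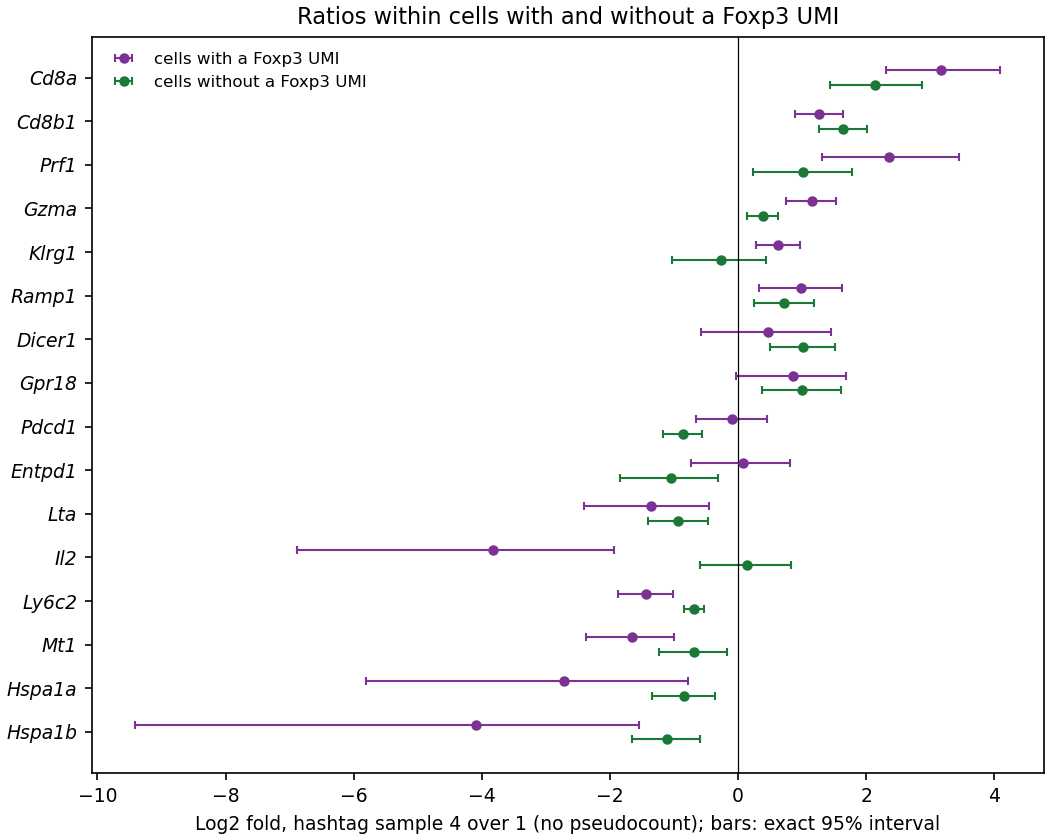
Log2 fold of hashtag sample 4 over 1 (x axis, no CPM added) with exact 95% intervals for counting error for 16 genes, in Cd4 class cells with a Foxp3 UMI (purple, 276 and 93 cells) and without (green, 861 and 290 cells). Cd8a and Cd8b1 lie to the right of 0 in both sets, Lta, Ly6c2, Mt1, Hspa1a and Hspa1b to the left in both, and Pdcd1 and Entpd1 to the left without Foxp3.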

How the data were processed

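Gene expression was measured in 1 pooled droplet library. The authors deposited a table of raw counts of UMIs for 14811 genes, a table of raw antibody counts and an annotation of hashtag number, identity and class per cell. The submitters' processing notes name mm10, Cell Ranger 3.1.0 and Seurat 3.2.3. The sources used here do not state the filtering of cells, removal of doublets, assignment of hashtags or calling of classes, and the hashtag and T cell receptor libraries were not analysed here. No doublet caller was run, cells with 2 UMIs of each of 2 Trbv genes stood in for one, and no cell barcode occurred more than once.

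Counts were summed per hashtag sample and class and divided by the total without 117 T cell receptor and immunoglobulin genes (CPM). Intervals are exact: Poisson for levels, conditional binomial for ratios, Clopper-Pearson for shares, at 95% and for counting error only. Log2 ratios used 5 CPM as pseudocount and folds used none. The step was tested on simulated data with Python 3.11.15, numpy 2.4.6 and scipy 1.17.1. Genes were named when among the 15 highest or 15 lowest log2 ratios of called genes with 20 CPM or more in the sample where they were higher, 100 UMIs and a UMI in 5% of its cells, receptor, mitochondrial, ribosomal and unnamed genes left out, plus the co-receptor and lineage genes, Foxp3 and, from each of 33 gene lists, the top 2 and bottom 2 members, of which a part is described. That rule covers 45 higher and 67 lower genes. Ccl9, Cd3e, Cd40lg, Csf1r, Ctla4, Fcgr3, Gzmb, Hsph1, Ifng, Isg15, Klf2, Lag3, Ms4a7, Pgk1, Serpinb1a and Tnf fall outside these rules and were chosen after their values were seen, and 1 called marker gene is not reported here. Members, lists and 16 marker lists were chosen with earlier results of these data known. Alternatives were giving each cell equal weight (mean CPM over cells), TMM scaling (edgeR 4.0.16), pseudocounts of 1 and 20 CPM, thinning to 2000 UMIs, a filter of 1500 to 8000 UMIs, and other UMI and fold limits. Others left out cycling, Foxp3 or CD8 chain cells, or those with 2 Trbv genes or markers of other cell types. These were the marker lists of macrophages, dendritic cells, MHC class II, B cells, NK cells and melanoma cells. For dominating cells, the UMIs of each gene in its own top cells were taken off.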

Additional observations from a re-analysis of the deposited data

Results flagged for a closer look

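The chemokine genes Ccl3 and Ccl4 differed in opposite directions in the classes. The log2 ratio of sample 4 over 1 was -0.80 for Ccl3 in the Cd4 class and 1.16 in the Cd8 class, and -0.79 and 0.67 for Ccl4. In the Cd4 class of sample 1, 181 of 419 Ccl3 UMIs and 528 of 1073 Ccl4 UMIs lay in 1 cell. Within the Cd4 class Ccl4 was called in both directions. With a Foxp3 UMI it was higher in sample 4, at 28.2 and 273.5 CPM (37 and 105 UMIs, 9.70-fold, 6.61 to 14.5). Without one it was lower, at 256.4 and 65.7 CPM (3.91-fold, 3.12 to 4.94). Neither the difference between the classes nor that between these sets of cells was tested.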

How the results depend on the processing

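No paired analysis was possible because each group is 1 hashtag sample and no test was made. The 396 called genes (154 higher, 242 lower) became 183 (62 and 121) with at least 100 UMIs and 203 (59 and 144) at 2-fold. They became 595 (43 and 552) without the 2 top cells of each sample, which takes the larger share of sample 4's cells. Top cells were taken gene by gene, as those with most UMIs of that gene, and the totals of the samples were kept. No fixed set of cells was left out in this way. Of 2 alternatives added after seeing the data, leaving out cells with macrophage or MHC class II markers gave 285 (120 and 165), and leaving out 6 top cells of sample 1 and 2 of sample 4 gave 371 (128 and 243). Apart from the 2-fold limit, the 2 top cells and the markers of other cell types, Cd8a, Cd8b1, Cybb, Dapl1, Dicer1, Dtx1, Gpr18, Hspa1a, Hspa1b, Mt1, Prf1 and Ramp1 kept their calls in all alternatives where they were measured. So did Ccl22, Cxcl2, Il13, Il17a and Il21, which rest on few cells or few UMIs, so a kept call does not mean many cells. TMM scaling, with factors of 0.9987 for sample 1 and 1.001 for sample 4, kept all 50 called genes that were followed. The pseudocounts of 1 and 20 CPM do not enter the call, so they could not change it. The cause of the reversals below was not tested.

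Lists. Without CD8 chain cells, which removes both chains, the CD8 lineage median was -0.045 over 7 members, beside 0.21 for the same 7 over all cells. Without Foxp3 cells the MHC class II median was 0.25. Without cells with 2 Trbv genes the medians were 0.026 for chemokines and 0.064 for MHC class II, and without cycling cells 0.15 for mitosis and 0.29 for cycling markers. Thinned to 2000 UMIs, CD8 T cell markers had -0.0079. Without cells with markers of other cell types, which keeps 244 and 100 cells, the medians were -0.058 for CD8 lineage, 0.0089 for type I interferon and -0.020 for the mitochondrial genome.

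Genes, as log2 ratios. Without markers of other cell types: Cd8b1 -0.32, Hist1h1d -1.42, Il2 0.41 and Lta 0.24. Without CD8 chain cells: Ccr7 -0.42, Cd160 -0.10 and Xcl1 -2.02. Without Foxp3 cells: Gzmc -0.92, Il2 0.11 and Nr4a1 -0.49. Without cells with 2 Trbv genes: Ccl3 0.068, Ccl4 0.24 and Il2 0.065. Without cycling cells: C1qa -2.10, C1qc -2.88, Ccl3 0.26, Ccl4 0.31, Il2 0.083 and Xcl1 -1.59. In cells of 1500 to 8000 UMIs: C1qc -1.06, Ccl6 0.078, Hist1h1d -0.0096, Tyrobp 0.72 and Xcl1 -1.30. Without the 2 top cells: C1qa -1.07, C1qc -1.75 and Xcl1 -1.23. Without 6 and 2 top cells: C1qc -0.95, Ccl3 0.022, Il2 0.15 and Xcl1 -0.45. Without macrophage or MHC class II marked cells: Lyz2 0.18 and Tyrobp 1.39. Depth limits genes under about 20 CPM most, where sample 4 has few UMIs.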

Other observations

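V gene use, left out of the levels above, was read as shares of cells. Among cells with at least 2 UMIs of a Trbv gene (852 in sample 1 and 289 in sample 4), Trbv12-1 was found in 0.822% (7 cells, 0.331 to 1.68) and 4.15% (12 cells, 2.16 to 7.14), Trbv29 in 4.70% (3.38 to 6.34) and 7.96% (5.11 to 11.7), and Trbv1 in 13.3% (11.1 to 15.7) and 9.00% (5.96 to 12.9). These 3 were chosen after all V genes were seen. For Trbv29 and Trbv1 the intervals overlap, and of the 3 only Trbv12-1, on 7 and 12 cells, had intervals that lay apart.

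Antibody counts were sparse, with 1019 in the 1137 cells of sample 1 and 305 in the 383 cells of sample 4. The CD4 antibody had 39 and 17 counts, the CD8a antibody 1 and 1, the CD45.1 antibody 33 and 4, and the CD90.2 antibody 42 and 5.

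Among all compared cells, those with a Foxp3 UMI and at least 2 UMIs of cycling markers were 4.31% in sample 1 (49 cells, 3.21 to 5.66) and 2.09% in sample 4 (8 cells, 0.906 to 4.07).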
